A study of Mus musculus with 15 samples.

Results

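The guanylate-binding proteins are a family of interferon-inducible GTPases, and the genes described here are the 10 protein-coding members Gbp2, Gbp2b, Gbp3, Gbp4, Gbp5, Gbp6, Gbp7, Gbp8, Gbp9 and Gbp10. They were taken by symbol from the 51763 genes of the count table. All 10 were among the 16919 genes that passed the filter on low counts, although 4 of them (Gbp2b, Gbp4, Gbp6 and Gbp10) did not have 10 counts in each control library and passed through the stimulated groups.

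Guanylate-binding proteins are large GTPases related to dynamin that bind and hydrolyse GTP, self-assemble and coat the membranes of pathogen-containing vacuoles and of bacteria that reach the cytosol. They are known as effectors of interferon-γ in macrophages, where they open vacuoles and help to present bacterial lipopolysaccharide to caspase-11, the sensor of the non-canonical inflammasome. Some members carry a carboxy-terminal cysteine motif that is prenylated, a lipid addition that anchors the protein in membranes.

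RNA was sequenced from bone marrow-derived macrophages (BMDMs) of wild-type female C57BL/6NTac mice aged 8 to 10 weeks, with 3 libraries in each of 5 conditions and 24 h of stimulation. The control received PBS. Fully reduced and disulfide high-mobility group box 1 (frHMGB1 and dsHMGB1), a nuclear protein that acts as an alarmin outside the cell, were given at 5 µg/mL. Purified lipopolysaccharide of Escherichia coli (LPS) was given at 1 µg/mL, and the group named LPS/IFNγ received LPS and 20 ng/mL of interferon-γ. For that group the sources disagree on the amount of LPS, which is 100 ng/mL by the methods and the protocol but 1 µg/mL by the treatment field, so the comparison of LPS/IFNγ with LPS may hold a second change.

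The macrophages of 5 mice were pooled before seeding, so the 3 libraries of a condition are technical replicates, and the errors and p-values measure how far wells and libraries differed, not how far mice did. The frHMGB1 was made in-house in buffers with the reducing agent DTT. The dsHMGB1 came from another laboratory and was made without DTT. Redox form, source and buffer therefore cannot be told apart in their comparison. Whether the PBS control held DTT is not stated. Endotoxin in the HMGB1 was measured and was under a limit given in the methods, and its part in the results was not tested. The HMGB1 was recombinant and carried a tag. In bulk samples such as these, a change in the number of cells of a type and a change in RNA per cell cannot be told apart.

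Libraries held 40934540 to 80925478 counts. PBS replicate 3 stood apart from the other PBS libraries. Its log2 CPM correlated with theirs at 0.933 and 0.938, against 0.987 to 0.993 for the other pairs within a condition, and processed pseudogenes took 1.49% of its counts against 0.805% and 0.816%. Calls against PBS are therefore given with and without it. Macrophage markers were abundant in all libraries: the summed level of 8 macrophage markers was 21700 to 26300 CPM in PBS, 27100 to 27400 with frHMGB1, 18400 to 19700 with dsHMGB1, 14900 to 15500 with LPS and 13200 to 13500 with LPS/IFNγ, while Cd3e, Cd3d, Cd8a, Ncr1, S100a9, Ly6g, Mpo, Hba-a1 and Hbb-bs, which mark T cells, NK cells, neutrophils and erythroid cells, were at 0 in all libraries. The neutrophil list summed to 1.97 to 5.47 CPM, most of it S100a8, and the dendritic cell list to 3.35 to 5.17 CPM in PBS, frHMGB1 and dsHMGB1, 7.81 to 8.62 CPM with LPS and 13.8 CPM or more with LPS/IFNγ. The summed T and NK cell list was at 13.6 to 35.8 CPM, nearly all of it Cd4. B-cell markers, nearly all of them Ighm counts, were 37.8 to 51.4 CPM in PBS and frHMGB1 and 5.42 to 12.6 CPM in the 3 other conditions, and the endothelial list, nearly all Kdr, was 11.7 to 30.8 CPM in the former and 62.8 to 104.0 CPM in the latter. Stromal markers were 118.0 to 282.0 CPM in PBS and 189.0 to 247.0 CPM elsewhere. The part of these lists in the results was not tested.

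The family lies in a cluster on chromosome 3 and a cluster on chromosome 5. By GENCODE M21 on GRCm38, Gbp5, Gbp7, Gbp3, Gbp2b and Gbp2 follow each other on the plus strand of chromosome 3, from chr3:142493978 at the start of Gbp5 to chr3:142638008 at the end of Gbp2. Gbp8, Gbp9, Gbp4, Gbp10 and Gbp6 lie on the minus strand of chromosome 5, between chr5:105014150 and chr5:105293698. All members share the GTP-binding loop, in which a glycine codon is followed at a distance by glycine, lysine and serine codons. The loop is shown for the members whose letters differ, in the coding strand and with the 24 bases of the loop in capitals, to show how near the members are to each other, which bears on how reads can be assigned. It lies in coding exons and covers codons 45 to 52 in Gbp2, Gbp2b, Gbp5 and Gbp7, codons 39 to 46 in Gbp3 and codons 43 to 50 in the 5 genes of chromosome 5.
Gbp2: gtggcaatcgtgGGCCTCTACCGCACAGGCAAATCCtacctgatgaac
Gbp2b: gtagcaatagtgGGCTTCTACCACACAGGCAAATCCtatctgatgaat
Gbp5: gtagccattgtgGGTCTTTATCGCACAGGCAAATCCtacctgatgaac
Gbp3: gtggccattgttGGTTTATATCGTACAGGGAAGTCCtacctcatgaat
Gbp7: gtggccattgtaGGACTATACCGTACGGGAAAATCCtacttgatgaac
Gbp9: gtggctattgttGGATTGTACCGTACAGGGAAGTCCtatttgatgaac
Gbp4: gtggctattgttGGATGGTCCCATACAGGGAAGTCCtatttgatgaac
Gbp10: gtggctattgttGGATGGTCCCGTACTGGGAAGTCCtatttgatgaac

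Gbp6 and Gbp8 had the same 48 bases as Gbp9. Gbp4 and Gbp10 differed from each other at 2 bases, and Gbp2 and Gbp2b at 6. Of the 50-base stretches of its transcripts, Gbp10 shared 84.07% with other genes and Gbp6 70.653%, mainly with each other and with Gm43302, a gene model that runs across both and overlaps 46.269% and 28.989% of their exon bases. Gbp8 shared 18.124%, Gbp7 12.738%, mostly with Gm43802, a processed pseudogene inside it, and Gbp9 8.046%. Gbp4 shared 7.7%, Gbp3 3.754%, Gbp2 2.029%, Gbp2b 1.839% and Gbp5 1.442%. How the authors assigned reads that match several genes is not given in the sources used here, so the levels of Gbp6 and Gbp10 are uncertain.

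The carboxy-terminal ends separate the members by their lipid anchor. The cysteine codon of a prenylation motif, 4 codons from the end of the reading frame, was found in Gbp2, Gbp2b and Gbp5 and in none of the 7 other members. The last 9 codons of these 3 genes are shown, stop codon included, with the codon at that place in capitals, and those of Gbp3 beside them as an example without it.
Gbp2 end: tcgtctgggaagTGCactatactctga
Gbp2b end: ccacctcgatcaTGCaccatactttaa
Gbp5 end: catcatcatgacTGTgttataagctaa
Gbp3 end: aaattcctcggcTCActaagtagttag

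Unstimulated macrophages already held transcripts of some members and hardly any of others. The level per length, in normalized counts per kilobase of exon, was highest in PBS for Gbp2 at 479.7 ± 100.7 (SD, n = 3), followed by Gbp3 at 165.5 ± 31.3 and Gbp9 at 94.7 ± 36.6. Gbp8, Gbp5 and Gbp7 were at 23.2 ± 0.544, 22.1 ± 13.7 and 21.8 ± 13.6 on the same scale, with overlapping libraries. Gbp6 at 2.0 ± 0.743, Gbp4 at 1.2 ± 1.73, Gbp2b at 0.533 ± 0.737 and Gbp10 at 0.0556 ± 0.0964 were near 0. PBS replicate 3 had the lowest normalized count of the 3 PBS libraries for 9 members, at 0 for Gbp2b and Gbp4 and 0.292 to 0.972 times the mean of the other libraries for the other 7. For Gbp10 it shared a count of 0 with PBS replicate 2. The 10 genes together took 0.0034% to 0.0073% of the counts of a PBS library, with PBS replicate 3 at the low end.

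Against PBS, every member was higher with dsHMGB1, LPS and LPS/IFNγ. At an adjusted p below 0.05, 10 of 10 members were higher with dsHMGB1, where 23.3% of all tested genes were called higher, 10 of 10 with LPS against 26.7% of all tested genes, and 10 of 10 with LPS/IFNγ against 29.0%. By the study's own threshold, a log2 fold change above 2 without a p, 9 members passed with dsHMGB1 (8.43% of tested genes did), 9 with LPS (10.9%) and 10 with LPS/IFNγ (12.1%). These shares come from the fit and the tested genes used here and are not the study's own numbers. The member that did not pass with dsHMGB1 and LPS was Gbp8. The median log2 fold change of the members was 6.7, 7.39 and 8.73 in the 3 comparisons, beside medians of -0.1, -0.21 and -0.12 over all tested genes. These comparisons share the PBS libraries. Gbp2b, Gbp4, Gbp6 and Gbp10 passed the filter through the stimulated groups, so their calls against PBS were partly set by the filter. The other members had at least 10 counts in each PBS library, and all of them were called in the 3 comparisons.

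Together the 10 genes made up 0.51% to 0.585% of all counts in dsHMGB1 libraries, 0.799% to 0.831% in LPS libraries and 1.67% to 1.68% in LPS/IFNγ libraries. The 3 ranges do not overlap, and all lie above the 0.00682% to 0.00903% of frHMGB1 libraries.

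**Figure D1:**
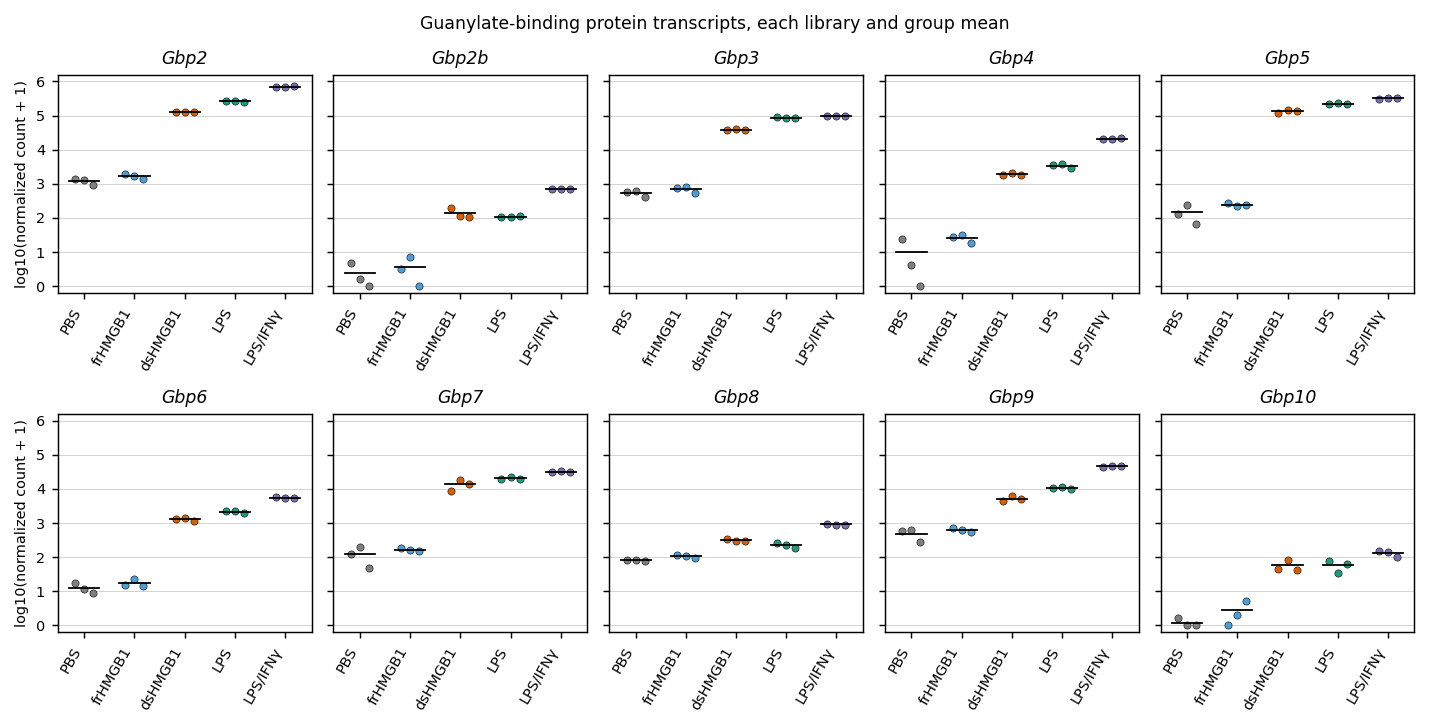
Normalized counts of the 10 genes in each of the 15 libraries, as log10(normalized count + 1), with 1 panel a gene, 3 points a condition and a bar at the mean. Points of PBS and frHMGB1 lie low and near each other, points of dsHMGB1, LPS and LPS/IFNγ lie above them in all panels, and Gbp8 shows the smallest step.

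Gbp2 and Gbp5, both with a prenylation motif, reached the highest levels. Gbp2, which coats vacuoles and cytosolic bacteria, had normalized counts of 1380, 1324 and 916.1 in PBS, 1923, 1725 and 1417 with frHMGB1 and 127381, 130685 and 127602 with dsHMGB1. With LPS it was 261972, 261423 and 253156, and with LPS/IFNγ 706647, 689306 and 708351. The 5 conditions of Gbp2 did not overlap, and each step upward from frHMGB1 was called. Against PBS its log2 fold change was 6.73 ± 0.15 (standard error) with dsHMGB1 (adjusted p = 1.13e-11), 7.74 ± 0.15 with LPS (adjusted p = 2.66e-12) and 9.18 ± 0.15 with LPS/IFNγ (adjusted p = 8.54e-13). Without PBS replicate 3 the values were 6.57, 7.57 and 9.01.

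Gbp5, which has been linked to assembly of the NLRP3 inflammasome, started from 131.2, 244.7 and 64.4 normalized counts in PBS and 276.9, 222.8 and 237.3 with frHMGB1. It was at 116544, 143909 and 138189 with dsHMGB1, 216888, 228080 and 224642 with LPS and 312432, 321767 and 319258 with LPS/IFNγ. The 3 stimulated groups did not overlap, and the lowest of their libraries was far above the highest frHMGB1 library. The log2 fold change of Gbp5 against PBS was 9.81 ± 0.32 with dsHMGB1, 10.56 ± 0.32 with LPS and 11.07 ± 0.32 with LPS/IFNγ (adjusted p = 6.93e-10, 2.5e-10 and 1.7e-10). Without PBS replicate 3 these were 9.46, 10.2 and 10.71.

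Gbp2b, the chromosome 3 neighbour of Gbp2, was low in comparison. Its counts were 6, 1 and 0 in PBS and 2, 6 and 0 in frHMGB1. Normalized counts were 194.0, 109.3 and 107.6 with dsHMGB1, 108.6, 107.6 and 110.3 with LPS and 711.6, 698.7 and 690.9 with LPS/IFNγ. The dsHMGB1 and LPS libraries overlapped, and the LPS/IFNγ libraries stood alone. The 7 PBS counts set the precision of the folds: the ratio to PBS was 76.7 (95% interval 36.9 to 191.7) with dsHMGB1, 62.0 (29.6 to 155.9) with LPS and 398.7 (193.1 to 992.8) with LPS/IFNγ, where the intervals cover counting error only. PBS replicate 1 gave 6 of these 7 counts, and without it the log2 fold changes moved from 6.3, 5.97 and 8.65 to 8.35, 8.02 and 10.71, and without PBS replicate 3 to 5.93, 5.6 and 8.28.

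Gbp3 and Gbp7 are the chromosome 3 members without the cysteine. Gbp3 had normalized counts of 588.3, 609.8 and 422.9 in PBS, 764.3, 830.8 and 526.3 with frHMGB1, 38404, 39505 and 37882 with dsHMGB1, 87600, 87222 and 83275 with LPS and 97746, 97294 and 98627 with LPS/IFNγ. It was the member with the smallest step between LPS and LPS/IFNγ. Against PBS the log2 fold change of Gbp3 was 6.15 ± 0.17 with dsHMGB1, 7.31 ± 0.17 with LPS and 7.5 ± 0.17 with LPS/IFNγ (adjusted p = 4.36e-11, 8.13e-12 and 6.12e-12), and 6.01, 7.16 and 7.34 without PBS replicate 3.

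Gbp7, which has been linked to control of vacuolar pathogens, had 120.9, 199.9 and 46.9 normalized counts in PBS and 180.7, 166.6 and 153.2 with frHMGB1. Its dsHMGB1 libraries were spread widely, at 8620, 18617 and 14008, and those of LPS were at 19595, 21717 and 19575 and those of LPS/IFNγ at 30789, 32578 and 32226. The 3 stimulated groups did not overlap, and dsHMGB1 replicate 1 was the lowest of them. The log2 fold change of Gbp7 against PBS was 6.8 ± 0.37, 7.36 ± 0.37 and 8.01 ± 0.37 with dsHMGB1, LPS and LPS/IFNγ (adjusted p = 4.37e-08, 1.59e-08 and 7.77e-09), and 6.42, 6.97 and 7.62 without PBS replicate 3.

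On chromosome 5, Gbp9 was the member with the highest level. It had 576.7, 620.5 and 273.0 normalized counts in PBS, 740.8, 621.3 and 546.8 with frHMGB1, 4327, 6071 and 5007 with dsHMGB1, 10528, 11726 and 9963 with LPS and 45167, 45659 and 46491 with LPS/IFNγ. The stimulated groups did not overlap and rose in that order. Its log2 fold changes were above those of Gbp8 and below those of the other members, 3.38 ± 0.25, 4.45 ± 0.25 and 6.54 ± 0.25 (adjusted p = 2.44e-07, 1.62e-08 and 7.01e-10), and 3.1, 4.16 and 6.25 without PBS replicate 3.

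Gbp4 had counts of 37, 5 and 0 in PBS and normalized counts of 26.7, 29.6 and 17.3 with frHMGB1. It reached 1786, 2087 and 1770 with dsHMGB1, 3550, 3684 and 2979 with LPS and 20488, 21036 and 21551 with LPS/IFNγ. The libraries of the 3 stimulated conditions did not overlap. From 42 counts in PBS, the ratio of Gbp4 was 179.6 (95% interval 132.7 to 249.4) with dsHMGB1, 323.6 (239.2 to 449.4) with LPS and 1998 (1478 to 2773) with LPS/IFNγ. PBS replicate 1 held most of the control counts, and leaving it out moved the log2 fold changes from 7.61, 8.47 and 11.09 to 9.85, 10.71 and 13.33, and leaving out PBS replicate 3 moved them to 7.12, 7.97 and 10.6.

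Gbp6 and Gbp10, the pair that shares most sequence, differed in level and rose in the same conditions. Normalized counts of Gbp6 were 16.8, 10.7 and 8.2 in PBS, 13.9, 22.5 and 12.9 with frHMGB1, 1290, 1403 and 1127 with dsHMGB1, 2244, 2269 and 1913 with LPS and 5690, 5401 and 5532 with LPS/IFNγ. Its log2 fold changes against PBS were 6.67 ± 0.24, 7.42 ± 0.24 and 8.8 ± 0.24 with dsHMGB1, LPS and LPS/IFNγ (adjusted p = 8.24e-11, 2.25e-11 and 5.89e-12), and 6.53, 7.28 and 8.65 without PBS replicate 3. Gbp10 had a single count in the PBS libraries and 5 in those of frHMGB1, and normalized counts of 45.4, 83.6 and 40.3 with dsHMGB1, 75.0, 32.9 and 61.8 with LPS and 148.5, 142.1 and 102.4 with LPS/IFNγ. With 1 control count its ratios to PBS are loose, at 230.9 (95% interval 41.0 to 9164) with dsHMGB1, 229.1 (40.4 to 9123) with LPS and 516.5 (92.2 to 20452) with LPS/IFNγ, and its fitted log2 fold changes of 7.66, 7.66 and 8.87 moved to 8.48, 8.49 and 9.7 without PBS replicate 1, which held that count, to 7.06, 7.07 and 8.27 without PBS replicate 2 and to 7.47, 7.47 and 8.67 without PBS replicate 3. Every member stayed called in the 3 comparisons without PBS replicate 3.

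Gbp8, at the far end of the chromosome 5 cluster, moved least. Its normalized counts were 82.1, 79.5 and 78.5 in PBS, 117.6, 108.3 and 94.9 with frHMGB1, 352.3, 303.7 and 299.3 with dsHMGB1, 252.1, 233.1 and 182.3 with LPS and 970.4, 869.2 and 896.6 with LPS/IFNγ. No 2 conditions overlapped, and dsHMGB1 stood above LPS. The log2 fold change of Gbp8 against PBS was 1.99 ± 0.15 with dsHMGB1 (adjusted p = 1.06e-07), 1.48 ± 0.16 with LPS (adjusted p = 2.08e-06) and 3.51 ± 0.15 with LPS/IFNγ (adjusted p = 2.94e-10). It was the member on which PBS replicate 3 bore least, with values of 1.97, 1.46 and 3.49 without that library.

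**Figure D2:**
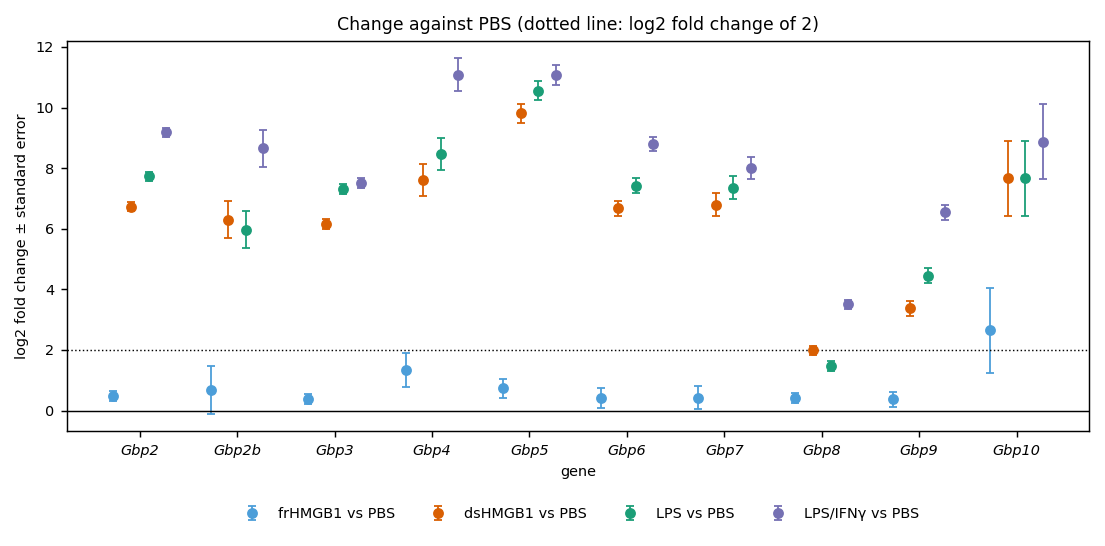
Log2 fold change against PBS with its standard error for the 10 genes, in 4 colours for frHMGB1, dsHMGB1, LPS and LPS/IFNγ, with a dotted line at a log2 fold change of 2. Gbp8 lies at 1.99, 1.48 and 3.51 and Gbp5 at 9.81, 10.56 and 11.07 in the last 3 conditions, and Gbp10 has the widest bars, since it had 1 count in PBS.

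With frHMGB1 no member was called against PBS. Of the 10 members 0 were higher, where 1.31% of all tested genes were called higher, and 0 were lower, against 5.69%. The mean values of all 10 were above those of PBS, with log2 fold changes from 0.37 (Gbp9) to 2.65 (Gbp10, 5 counts against 1) and a median of 0.45 beside -0.01 over all tested genes. Leaving out frHMGB1 replicate 2 turned Gbp2b from 0.69 to -0.69, and leaving out frHMGB1 replicate 3 moved Gbp10 to 0.9. By the threshold of 2 without a p, 1 member passed, Gbp10, where 0.609% of tested genes did. Only for Gbp2 and Gbp8 did the 3 frHMGB1 libraries all lie above the 3 PBS libraries, as they did for 9.74% of all tested genes. Gbp2 had a log2 fold change of 0.48 ± 0.15 (adjusted p = 0.083) and Gbp8 one of 0.42 ± 0.17 (adjusted p = 0.122), and at an unadjusted p below 0.05 edgeR's test also held Gbp3 (0.38 ± 0.17, adjusted p = 0.256) and Gbp5 (0.73 ± 0.32, adjusted p = 0.282).

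The call depends on the control libraries. DESeq2's Wald test called Gbp2 higher in frHMGB1, as did the fit without PBS replicate 3, in which its log2 fold change was 0.32. Without PBS replicate 1, Gbp2 (0.59) and Gbp4 (3.6) were called, and without PBS replicate 2, Gbp5 (1.29). The values of the 9 members other than Gbp8 were also nearer to PBS when PBS replicate 3 was left out, for example 0.06 in place of 0.43 for Gbp7 and 0.09 in place of 0.37 for Gbp9.

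Compared with frHMGB1 instead of PBS, 10 of 10 members were higher with dsHMGB1, against 27.7% of all tested genes. Gbp2b and Gbp10 are among them and passed the filter on low counts through dsHMGB1, LPS and LPS/IFNγ. The log2 fold change ran from 1.57 ± 0.15 for Gbp8 to 9.08 ± 0.31 for Gbp5, with a median of 6.01 beside 0.02 over all tested genes. No member's libraries overlapped between the 2 forms of HMGB1, and dsHMGB1 libraries lay above frHMGB1 libraries for 36.7% of all tested genes. Low frHMGB1 counts made 2 of the values depend on single libraries, with Gbp2b at 5.6 and at 6.99 without frHMGB1 replicate 2, and Gbp10 at 5.01, at 4.42 without frHMGB1 replicate 1 and at 6.75 without replicate 3. For Gbp2 the step was 6.25 ± 0.15 (adjusted p = 2.1e-11) and for Gbp3 5.77 ± 0.17 (adjusted p = 8.24e-11).

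Against LPS, dsHMGB1 gave lower levels of 4 members and a higher level of 1. Gbp3 (log2 fold change -1.16 ± 0.16, adjusted p = 0.000302), Gbp9 (-1.06 ± 0.25, adjusted p = 0.0085), Gbp2 (-1.01 ± 0.15, adjusted p = 0.00046) and Gbp6 (-0.75 ± 0.13, adjusted p = 0.00953) were lower, where 10.6% of all tested genes were. Gbp8 was higher (0.51 ± 0.14, adjusted p = 0.00914), where 15.8% of all tested genes were. Gbp4 (-0.86 ± 0.47), Gbp5 (-0.75 ± 0.31) and Gbp7 (-0.56 ± 0.37) did not pass, with adjusted p = 0.17, 0.116 and 0.346, although their dsHMGB1 libraries lay below the LPS libraries, as for 26.5% of all tested genes. Gbp2b (0.33 ± 0.28, adjusted p = 0.527) and Gbp10 (0.0 ± 0.42, adjusted p = 0.957) overlapped. The median of the members was -0.75 beside 0.02 over all tested genes.

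The calls depend on the scaling. With counts scaled to library totals alone, the median of all tested genes shifted up by 0.33, and 2 members were called lower, Gbp2 (-0.68 by edgeR's estimate) and Gbp3 (-0.82), while Gbp6 (-0.42) and Gbp9 (-0.73) no longer passed and Gbp8 (0.85) remained called higher. The calls of single members also rest on single libraries: without dsHMGB1 replicate 1 or LPS replicate 3 Gbp8 was not called (0.44 and 0.38), and without dsHMGB1 replicate 3 Gbp6 was not (-0.67). When the test was made against a fold of 2, no member passed in either direction. DESeq2's Wald test called Gbp5 lower as well, and a fit of these 2 conditions alone also called Gbp4 and Gbp5 lower.

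LPS/IFNγ libraries held more transcripts of most members than LPS libraries did, by steps of very different size. At an adjusted p below 0.05, 6 of 10 members were higher with LPS/IFNγ than with LPS, where 16.3% of all tested genes were, and 0 were lower, where 9.36% were. Gbp2b (log2 fold change 2.69 ± 0.27, adjusted p = 0.000183), Gbp4 (2.63 ± 0.47, adjusted p = 0.000388), Gbp9 (2.09 ± 0.25, adjusted p = 4.07e-05), Gbp8 (2.03 ± 0.14, adjusted p = 3.37e-07), Gbp2 (1.44 ± 0.15, adjusted p = 1.29e-05) and Gbp6 (1.37 ± 0.13, adjusted p = 5.83e-05) passed. They include members of both clusters, 4 of the 5 genes of chromosome 5 and 2 of the 5 of chromosome 3.

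The 4 that did not pass were Gbp10 (1.21 ± 0.42, adjusted p = 0.0564), Gbp7 (0.65 ± 0.37, adjusted p = 0.191), Gbp5 (0.51 ± 0.31, adjusted p = 0.222) and Gbp3 (0.19 ± 0.16, adjusted p = 0.38). In all 4 the LPS/IFNγ libraries lay above the LPS libraries, as they did for the 6 that passed and for 31.4% of all tested genes. The same 6 members were called whichever LPS or LPS/IFNγ library was left out. DESeq2's Wald test called Gbp10 as well, a fit of these conditions alone called all 10, and a test against a fold of 2 called Gbp2, Gbp2b, Gbp4, Gbp8 and Gbp9. The median of the members was 1.4 beside 0.0 over all tested genes, and scaling to library totals moved the latter by 0.01. The 3 members with the smallest values, Gbp3, Gbp5 and Gbp7, are neighbours on chromosome 3. With LPS they were at log2 fold changes of 7.31, 10.56 and 7.36 against PBS. In that comparison Gbp2, Gbp4, Gbp6 and Gbp10 were at 7.74, 8.47, 7.42 and 7.66, and Gbp2b, Gbp8 and Gbp9 at 5.97, 1.48 and 4.45. The differences between members were not tested.

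**Figure D3:**
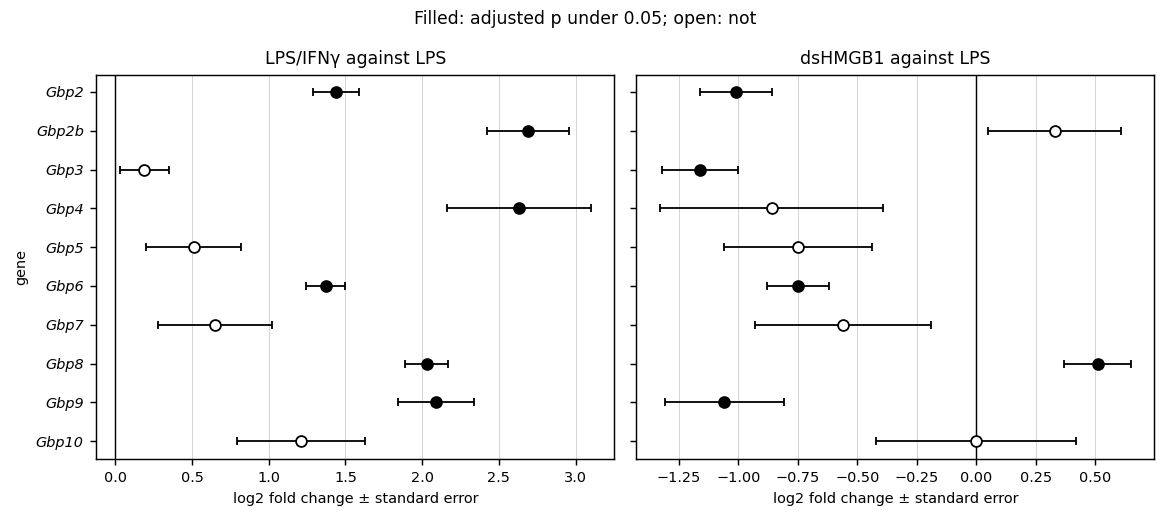
Log2 fold change with its standard error of LPS/IFNγ against LPS (left) and of dsHMGB1 against LPS (right) for the 10 genes, filled where the adjusted p is below 0.05. On the left all points lie above 0, from 0.19 (Gbp3) to 2.69 (Gbp2b), and on the right they lie between -1.16 (Gbp3) and 0.51 (Gbp8).

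Between dsHMGB1 and LPS/IFNγ the members were 9 of 10 lower with dsHMGB1, against 16.7% of all tested genes. A test against a fold of 2 called 6 of them lower, Gbp2, Gbp2b, Gbp4, Gbp6, Gbp8 and Gbp9. Gbp4 (log2 fold change -3.48 ± 0.47, adjusted p = 3.64e-05), Gbp9 (-3.16 ± 0.25, adjusted p = 1e-06) and Gbp2 (-2.45 ± 0.15, adjusted p = 9.16e-08) had the largest differences. Gbp10 did not pass (-1.21 ± 0.41, adjusted p = 0.0507) but passed by DESeq2's test, with RLE scaling, with the filter at 1 CPM, with protein-coding genes alone, in a fit of the 2 conditions and without dsHMGB1 replicate 2 (-1.61). The call of Gbp7 (-1.21 ± 0.37, adjusted p = 0.0204) was lost without dsHMGB1 replicate 1 (-0.96), without dsHMGB1 replicate 3 (-1.23), without LPS/IFNγ replicate 2 (-1.2) or replicate 3 (-1.21), and with counts scaled to library totals (-0.89 by edgeR's estimate). The dsHMGB1 libraries lay below the LPS/IFNγ libraries for every member and for 30.5% of all tested genes, and the median was -1.82 beside 0.01 over all tested genes.

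The order of the conditions was the same for 7 members (Gbp2, Gbp3, Gbp4, Gbp5, Gbp6, Gbp7 and Gbp9), with mean levels rising from PBS through frHMGB1, dsHMGB1 and LPS to LPS/IFNγ. Gbp2b and Gbp8 had dsHMGB1 above LPS, and Gbp10 had the same mean of 56.5 normalized counts in both. PBS and frHMGB1 libraries overlapped for 8 members. Over all tested genes, frHMGB1 libraries lay above PBS libraries for 9.74% and below them for 10.6%.

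The make-up of the family changed with the stimulus. As a share of the counts per kilobase summed over the 10 genes, Gbp2 was the largest part in all conditions, at 59.5% ± 2.75 (SD, n = 3) in PBS, 60.1% ± 1.15 with frHMGB1, 58.8% ± 1.97 with dsHMGB1, 60.7% ± 0.436 with LPS and 74.2% ± 0.404 with LPS/IFNγ. The 3 LPS/IFNγ libraries, at 73.8% to 74.6%, lay above those of all other conditions. Gbp5 had 2.59% ± 1.21 in PBS, 23.0% ± 1.56 with dsHMGB1, 19.9% ± 0.611 with LPS and 12.8% ± 0.306 with LPS/IFNγ. Gbp9 went the other way, from 11.4% ± 2.1 in PBS to 1.14% ± 0.142, 1.23% ± 0.0833 and 2.36% ± 0.0321, and Gbp3 from 20.6% ± 1.23 to 13.6% ± 0.52, 15.5% ± 0.252 and 7.98% ± 0.0416. As shares of plain counts, not divided by length, Gbp5 was the largest part with dsHMGB1, at 41.1% against 39.9% for Gbp2, and had 36.9% with LPS and 26.0% with LPS/IFNγ, and 35 of the 50 shares moved by more than 1 SD. A falling share here does not mean a falling level, since Gbp3 and Gbp9 were higher in every stimulated group than in PBS.

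By level per kilobase within a condition, Gbp2 was first and Gbp10 last in all 5 conditions. Gbp5 stood at rank 5 in PBS at 22.1 ± 13.7 and at rank 2 with dsHMGB1 at 20021 ± 2175, with LPS at 33630 ± 863.8 and with LPS/IFNγ at 47886 ± 727.9. Gbp9 was above Gbp7 in PBS and frHMGB1, below it with dsHMGB1 and LPS, and above it again with LPS/IFNγ, at 8848 ± 129.4 against 5676 ± 168.8. Gbp8 stood at rank 4 in PBS at 23.2 ± 0.544, where it overlapped Gbp5 and Gbp7, and at rank 8 with dsHMGB1, LPS and LPS/IFNγ, at 92.5 ± 8.55, 64.6 ± 10.5 and 264.9 ± 15.2.

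**Figure D4:**
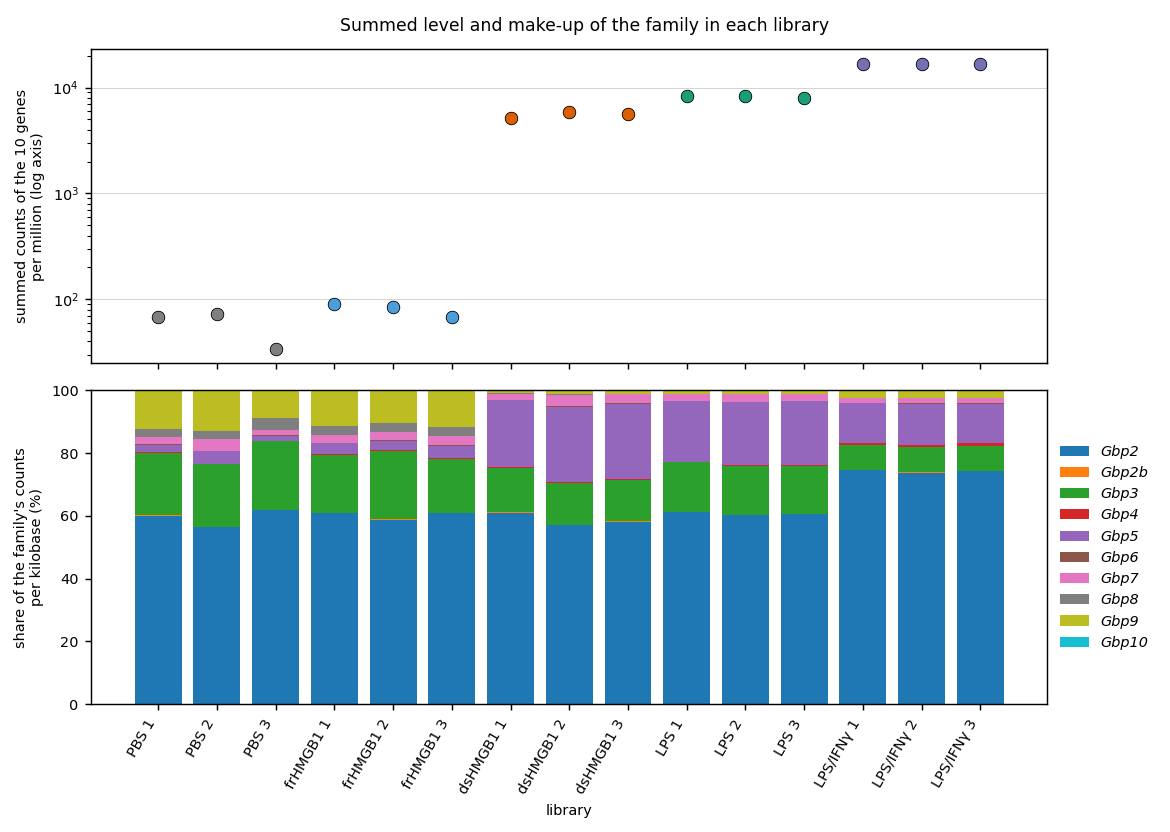
Top, counts of the 10 genes summed in each library, as CPM on a log axis. Bottom, share of each gene in the family's counts per kilobase in the same libraries, in which Gbp2 rises from 58.8% in dsHMGB1 to 74.2% in LPS/IFNγ and Gbp5 falls from 23.0% to 12.8%.

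The upstream sequences of the chromosome 3 members are shown because the 5 genes rise together and because interferon and NF-κB factors act through known motifs. The motifs searched, on both strands of windows from 250 bases before to 50 bases after the RefSeq start, were the interferon-stimulated response element core GAAANNGAAA, the gamma-activated site TTCNNNGAA and an NF-κB site by name. Of 32851 such windows in the RefSeq table of GRCm38.p6, 3.44% held the first, 8.3% the second and 4.51% the third. Windows were found for these 5 genes, and Gbp4, Gbp6, Gbp8, Gbp9 and Gbp10 were not matched. The stretches start at most 180 bases before the start on the plus strand and, but for Gbp2, end before the next annotated exon, and matches of the 3 motifs are in capitals.
Gbp5, chr3:142496754-142496899: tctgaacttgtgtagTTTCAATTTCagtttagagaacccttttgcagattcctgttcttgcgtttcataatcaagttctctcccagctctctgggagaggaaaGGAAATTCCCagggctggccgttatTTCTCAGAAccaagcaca
Gbp7, chr3:142530156-142530335: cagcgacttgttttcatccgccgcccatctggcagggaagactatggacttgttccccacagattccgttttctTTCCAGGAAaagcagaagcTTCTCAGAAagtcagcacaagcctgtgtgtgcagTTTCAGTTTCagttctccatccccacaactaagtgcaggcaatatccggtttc
Gbp3, chr3:142559864-142560025: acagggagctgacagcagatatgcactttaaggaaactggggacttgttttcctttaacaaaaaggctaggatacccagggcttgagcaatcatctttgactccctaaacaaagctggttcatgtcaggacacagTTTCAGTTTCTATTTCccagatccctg
Gbp2b, chr3:142594667-142594846: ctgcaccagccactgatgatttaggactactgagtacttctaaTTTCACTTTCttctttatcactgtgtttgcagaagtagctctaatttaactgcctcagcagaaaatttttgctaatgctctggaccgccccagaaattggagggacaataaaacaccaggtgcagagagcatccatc
Gbp2, chr3:142620594-142620623: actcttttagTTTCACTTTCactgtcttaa

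All 5 windows held the interferon-stimulated response element core, on the minus strand. Its first base lay 165 bases before the RefSeq start in Gbp5, 53 in Gbp7, 45 in Gbp3, where a second match begins 39 bases before the start and overlaps the first, 137 in Gbp2b and 59 in Gbp2. In Gbp2 only 30 bases are printed, since GENCODE starts its first exon at chr3:142620602, 2 bases before the match. The gamma-activated site was present in Gbp5 and Gbp7 alone, with 2 matches each, of which the match of Gbp5 at 245 bases before its start is outside the stretch shown. The printed stretch of Gbp5 lies in an intron of a longer annotated transcript. An NF-κB match was found in Gbp5 alone, 77 bases before the start. Gbp5 and Gbp7, with the gamma-activated site, had log2 fold changes of 0.51 and 0.65 between LPS/IFNγ and LPS. Gbp2, Gbp2b and Gbp3, without it in this window, had 1.44, 2.69 and 0.19. A link between the site and these values was not tested.

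The genes that carry the interferon signal to the family were described from lists chosen by role. Receptor and ligand genes came first. Of the 5 tested, 4 were higher with dsHMGB1, 4 with LPS and 3 with LPS/IFNγ, against 23.3%, 26.7% and 29.0% of all tested genes. With LPS/IFNγ 1 was lower, where 31.2% of all tested genes were. Ifnb1, the interferon-β that macrophages secrete, was at 1.28 normalized counts in PBS, 1.43 with frHMGB1, 473.0 with dsHMGB1, 1765 with LPS and 3131 with LPS/IFNγ (mean, n = 3), and dsHMGB1 differed from LPS by a log2 fold change of -1.9 (adjusted p = 0.00024). Ifngr1 and Ifngr2, the chains of the interferon-γ receptor, were 0.82 and 0.52 lower on the log2 scale with LPS/IFNγ than with LPS (adjusted p = 0.000241 and 0.000262). Ifng itself did not pass the filter, with 12 counts in all, 5 in dsHMGB1 and 7 in LPS/IFNγ. Ifnb1 was low in PBS and frHMGB1, so its calls against PBS may have been partly set by the filter.

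With frHMGB1 0 of 13 kinases and transcription factors of the pathway were called, where 1.31% of all tested genes were higher and 5.69% lower. All 13 were higher than in PBS with each of dsHMGB1, LPS and LPS/IFNγ, against 23.3%, 26.7% and 29.0% of all tested genes. Irf1, a factor that acts on interferon-induced promoters, had log2 fold changes of 4.29, 4.64 and 4.91 (adjusted p = 1.05e-11, 3.4e-12 and 1.96e-12). Between LPS/IFNγ and LPS, 3 of the 13 were higher and 2 lower, where 16.3% and 9.36% of all tested genes were. The higher ones were Batf2 (2.35, adjusted p = 8.06e-08), Irf8 (2.07, adjusted p = 2.58e-09) and Ciita (1.98, adjusted p = 6.68e-05), a partner of AP-1 factors, a myeloid interferon regulatory factor and the master regulator of class II antigen presentation, and the lower ones were Irf7 (-0.92) and Irf9 (-0.9), which serve type I interferon. Irf1 (0.27, adjusted p = 0.0516) did not pass. Between dsHMGB1 and LPS, 6 of 13 were lower, with Irf8 at -1.92 (adjusted p = 1.12e-08), and 0 were higher, against 10.6% and 15.8% of all tested genes.

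Most inhibitors of the pathway were higher as well. Of 5 genes, 4 were higher with dsHMGB1 and all 5 with LPS and LPS/IFNγ, against 23.3%, 26.7% and 29.0% of all tested genes. Socs1, which blocks the kinases of the interferon-γ receptor, was at 59.3 normalized counts in PBS and 7695, 11852 and 20735 in the 3 stimulated conditions. Socs3 was the only one of the 5 called with frHMGB1 (log2 fold change 1.14, adjusted p = 0.00437), where 1.31% of all tested genes were called higher. Usp18, an inhibitor of type I interferon signalling, was 1.0 lower on the log2 scale with LPS/IFNγ than with LPS (adjusted p = 0.0045).

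The other interferon-inducible GTPases, the immunity-related GTPases and Mx proteins, were higher in 10 of 10 cases with dsHMGB1, LPS and LPS/IFNγ. The shares of all tested genes called higher were 23.3%, 26.7% and 29.0%. Tgtp1 and Gvin1 were low in PBS, at 4.37 and 8.67 normalized counts, so their calls may have been partly set by the filter. The medians of the 10 GTPases were 5.98, 6.74 and 6.85. Between LPS/IFNγ and LPS they divided, with 4 higher, 2 lower and 4 not called, where 16.3% of all tested genes were higher and 9.36% lower. Iigp1 (2.9, adjusted p = 2.5e-06) and Tgtp1 (2.87, adjusted p = 3.87e-07), which attack vacuole membranes, had the largest rises, and Irgm1 (0.53, adjusted p = 0.00722) and Igtp (0.36, adjusted p = 0.00143) smaller ones. Mx1 (-1.07, adjusted p = 0.0184) and Mx2 (-1.37, adjusted p = 0.00121), antiviral GTPases that respond to type I interferon, were lower. Between dsHMGB1 and LPS 6 of these GTPases were lower and 0 higher, against 10.6% and 15.8% of all tested genes, and their median was -0.76.

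Among genes of the inflammasome and of cell-autonomous defence, 10 of 10 were higher with each of dsHMGB1, LPS and LPS/IFNγ. Nos2 was low in PBS, at 9.03 normalized counts, so its calls against PBS may have been partly set by the filter. The shares of all tested genes called higher were 23.3%, 26.7% and 29.0%. Casp4, the mouse gene of caspase-11, had log2 fold changes of 3.48, 4.02 and 4.04 (adjusted p = 1.22e-10, 2.5e-11 and 1.91e-11) and was not called between LPS/IFNγ and LPS (0.03, adjusted p = 0.758). In that comparison 7 of the 10 were lower, with Il1b at -2.89 (adjusted p = 4.53e-08) and Aim2 at -1.39 (adjusted p = 1.06e-07). The only higher gene of the list was Nos2 at 1.32 (adjusted p = 0.006). Over all tested genes, 9.36% were lower and 16.3% higher. With frHMGB1, 2 were called higher, Il1b (1.32, adjusted p = 0.000411) and Nlrp3 (0.68, adjusted p = 0.0433), where 1.31% of all tested genes were.

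A further list held 13 genes for loading guanylate-binding proteins onto membranes or for prenylation and the processing after it. Of these, 2 were higher and 4 lower with dsHMGB1, 3 higher and 7 lower with LPS, and 3 higher and 8 lower with LPS/IFNγ. Of all tested genes, 24.2%, 36.2% and 31.2% were lower in these comparisons, and 23.3%, 26.7% and 29.0% higher. Atg16l1, of the autophagy conjugation complex, was higher in each (1.15, 1.82 and 2.25, adjusted p = 1.68e-07, 1.46e-09 and 1.41e-10), and Fnta, a subunit shared by the prenyl transferases, was lower in each (-0.84, -1.11 and -1.12, adjusted p = 0.00242, 0.00014 and 0.000164). The atlastins are dynamin-like GTPases related to the family. Atl3 was higher with each stimulus (0.94, 1.1 and 1.14, adjusted p = 0.00998, 0.00371 and 0.00236), Atl2 with LPS/IFNγ (0.51, adjusted p = 0.0454), and Atl1 was not called in these comparisons.

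Calls of these lists against PBS were also made without PBS replicate 3. The counts with dsHMGB1, LPS and LPS/IFNγ stayed the same for the pathway's kinases and factors, its inhibitors, the other GTPases and the inflammasome list. With frHMGB1, 3 of 13 kinases and factors, 2 of 10 other GTPases, 4 of 10 inflammasome and defence genes, 1 of 5 receptors and ligands and 1 of 5 inhibitors were then higher, where 1459 of 17339 tested genes were. Among them were Irf1 (0.21 by edgeR's estimate, adjusted p = 0.0273) and Casp4 (0.5, adjusted p = 5e-05), and Socs3 (1.05, adjusted p = 0.00142), Il1b (1.24, adjusted p = 0.000313) and Nlrp3 (0.45, adjusted p = 0.000579) stayed called. With dsHMGB1, LPS and LPS/IFNγ, loading and prenylation then had 3, 4 and 4 genes higher and 5, 7 and 8 lower. Receptors and ligands had 4, 5 and 3 higher and 0, 0 and 2 lower. Atlastins had 1, 1 and 2 higher and 1, Atl1, lower in each. Among the 17339 tested genes, 5170, 5698 and 5769 were then higher and 5034, 6640 and 5965 lower.

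**Figure D5:**
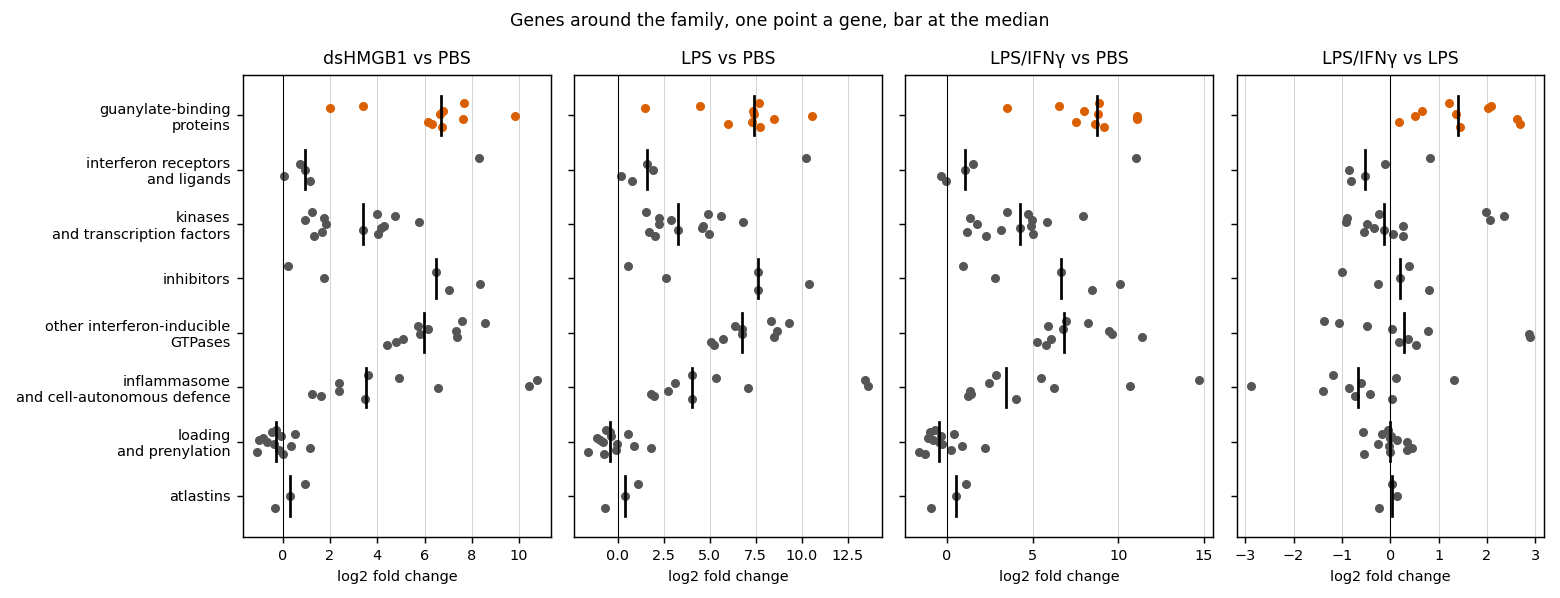
Log2 fold changes of the guanylate-binding proteins and of the genes in 7 lists around them, in 4 comparisons, with 1 point a gene and a bar at the median. The family's medians of 6.7, 7.39 and 8.73 against PBS stand beside 5.98, 6.74 and 6.85 for the other interferon-inducible GTPases and -0.27, -0.43 and -0.44 for loading and prenylation, and in the last panel beside 0.27 and -0.01 at a family median of 1.4.

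Genes whose pattern was most like that of the family were looked for among 10093 tested protein-coding genes that are no member. The measure was Pearson's r of log2(normalized count + 1) over the 15 libraries. It serves as a description, since all libraries share 1 pool of cells and the same 5 conditions. The mean of the members was most like Lyn (r = 0.9985), Olr1 (0.9974), Stx11 (0.9974), Serpina3f (0.9971) and Ralgds (0.9967). Gbp2 was most like Stx11 (0.9996), with mean normalized counts of 268.2, 378.4, 8621, 13791 and 28381 in the order from PBS to LPS/IFNγ, and Gbp3 was most like Ifi205 (0.9995). Within the family, Gbp2 and Gbp6 (0.9984) and Gbp5 and Gbp7 (0.9975) were the nearest pairs. Gbp8 was the least like any other member, with Gbp9 nearest at 0.9411.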

How the data were processed

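The counts of reads per gene were deposited by the authors without normalization. Before deposition the authors made stranded mRNA libraries, sequenced paired ends on a NextSeq instrument and aligned the reads to GRCm38 with STAR, after CASAVA for base calling, per the labels. Which program and annotation produced the counts is not given in the sources used here. GENCODE M21 held 51661 of the 51763 identifiers, and 0 columns lacked a sample.

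Genes were filtered with edgeR's filterByExpr (minimum count 10, minimum total 15) and tested in R 4.3.3 with edgeR 4.0.16, by its quasi-likelihood F test after TMM scaling, all 15 libraries in one fit and Benjamini-Hochberg adjustment over 16919 genes in each of 8 comparisons. Normalized counts, log2 fold changes and standard errors are DESeq2 1.42.0 values without shrinkage. The study compared conditions with DESeq2 and used fold changes alone. Levels per kilobase use the union of annotated exons. Likeness was sought among tested protein-coding genes other than the members whose mean over all 15 libraries reached 100 normalized counts. Reads of the same molecule after PCR are not independent, so count intervals cover counting error only. Named genes were the members, other annotated Gbp genes and the pathway lists. Members and lists were chosen with earlier results of these data known. Replicate numbers did not pair the libraries (correlations of deviations from -0.34 to 0.336), so the fit had no block. Alternatives were DESeq2's test, RLE or total-count scaling (the latter chosen after seeing the data), other filters, protein-coding genes alone, fits of 2 conditions, a test against a fold of 2, a replicate block, and leaving out each library in turn. Pathway lists without PBS replicate 3 were added after seeing the data.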

Additional observations from a re-analysis of the deposited data

Results flagged for a closer look

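Genes of the family outside the 10 members also had counts, and 2 of them stood out because their level in a stimulated condition was above that of the PBS libraries. Gbp11, annotated as a polymorphic pseudogene next to Gbp6 on chromosome 5 (chr5:105323042-105346472, GRCm38), had counts of 2, 0 and 0 in PBS and 2, 4 and 4 in frHMGB1. Its mean was 324.6 ± 11.5 normalized counts (SD, n = 3) with dsHMGB1, 254.0 ± 19.9 with LPS and 165.3 ± 13.3 with LPS/IFNγ, and no libraries overlapped between these 3 conditions. The order is the reverse of that in Gbp2, Gbp4 and Gbp9. Between dsHMGB1 and LPS/IFNγ the log2 fold change was 0.98 ± 0.14 (adjusted p = 0.0036), between dsHMGB1 and LPS 0.35 ± 0.14 (adjusted p = 0.21) and between LPS/IFNγ and LPS -0.62 ± 0.14 (adjusted p = 0.075), with p from edgeR's fit. Against PBS, the frHMGB1 value was 2.81 ± 1.11 (adjusted p = 0.0423) on 10 against 2 counts. Gbp11 passed the filter on low counts through dsHMGB1, LPS and LPS/IFNγ, so this value rests on counts near 0. Of its 50-base stretches 19.183% are shared with other genes, chiefly Gbp8 and Gbp4.

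Gbp2-ps, a pseudogene on chromosome 3 with no 50-base stretch in common with another gene, had 0 counts in 13 libraries and counts of 0, 8 and 6 in LPS/IFNγ, a mean of 4.63 ± 4.27 normalized counts. Gm43302, the gene model that spans Gbp6 and Gbp10, had 35 counts, of which 30 were in dsHMGB1 libraries.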

How the results depend on the processing

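All 10 members stayed higher with dsHMGB1, LPS and LPS/IFNγ than with PBS, and with dsHMGB1 than with frHMGB1, under every alternative run. The count of members called higher with frHMGB1 than with PBS was 0 in the report, 1 by DESeq2's Wald test and 0 to 2 when a library was left out. For dsHMGB1 against LPS, DESeq2's Wald test called 5 members lower, a fit of the 2 conditions 6 and scaling to library totals 2. The test against a fold of 2 called 0 members higher and 0 lower, and leaving out a library gave 0 to 1 higher. For LPS/IFNγ against LPS, the fit of these 2 conditions alone called 10 higher. For dsHMGB1 against LPS/IFNγ, the test against a fold of 2 called 6 members lower, scaling to library totals 8 and DESeq2's Wald test 10. With a replicate block the counts were as reported in all 8 comparisons, for example 6 higher for LPS/IFNγ against LPS and 4 lower for dsHMGB1 against LPS, and the block changed no count of members called. The cause of these changes was not tested. Signs turned only for values that were not called: Gbp10 between dsHMGB1 and LPS was 0.05 by edgeR's estimate, 0.33 with library totals and -0.41 to 0.25 with a library left out, and Gbp2b between frHMGB1 and PBS was -0.69 (without frHMGB1 replicate 2) to 2.75 (without PBS replicate 1). Low counts limit Gbp10, Gbp2b, Gbp4 and Gbp6 in PBS, and the fold changes of these genes against PBS rest on 1, 7, 42 and 50 control counts. Scaling to library totals lowered the log2 fold changes against PBS by a median of 0.68 over all genes with LPS and LPS/IFNγ and by 0.36 with dsHMGB1, to 0.77 for Gbp8 with LPS, without a change in the calls of members.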
